A study of Mus musculus with 8 samples.

Results

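Accessible chromatin was examined at the genes of the liver X receptors (LXRs) and of the cholesterol efflux program they control in alveolar macrophages (AMs), the resident macrophages of the airspaces. The genes were Nr1h2 and Nr1h3, which encode LXRβ and LXRα, the cholesterol exporters Abca1 and Abcg1, the apolipoprotein gene Apoe, and Mylip, whose product IDOL marks the LDL receptor for degradation. Every ATAC-seq peak that overlapped one of these 6 genes or the 20 kb on either side (mm10, GENCODE M21) was taken, and peaks of different libraries were merged where they shared a base. This gave 68 regions of 82424 in the whole genome, 66 with a peak in at least 2 libraries (72711 genome-wide) and 55 with a peak in all 8 (47499 genome-wide). Regions are named by gene and order, from the 5′ flank to the 3′ flank of the gene (Abca1-r1 to Abca1-r19, for example).

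The libraries came from AMs of adult mice, collected by lavage and treated with the Tn5 transposase, which cuts open DNA. A main legend of the paper describes the profiled cells as sorted mature AMs, while a supplementary legend names immature AMs for KO. In 4 libraries the genotype was CD11cCre+ Rxrabfl/fl (KO), and in the other 4 it was CD11cCre- Rxrabfl/fl (WT), so both groups carried the floxed alleles of Rxra and Rxrb and only KO animals carried Cre, under control of the CD11c promoter. Replicates were labelled 1_2, 1_3, 2 and 3 in KO and 1_2, 1_3, 3 and 4 in WT, and values are given in that order throughout. The labels do not say whether 1_2 and 1_3 came from separate animals, so p-values measure the spread between these libraries, which may be partly technical.

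LXRs bind DNA as heterodimers with retinoid X receptors (RXRs), the receptors deleted here, typically at direct repeats of a hexamer spaced by 4 bases (DR4). When loaded with oxysterols or intermediates of cholesterol synthesis, they raise the expression of Abca1, Abcg1, Apoe and Mylip, so that cells export cholesterol and take up less lipoprotein. Without ligand, LXR-RXR heterodimers can hold corepressors at the same elements and keep genes such as Abca1 low. AMs clear surfactant lipid and depend on this export, and Abcg1 is the exporter best known for its role in the lung.

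The number of tags at a region's summit was used as its accessibility. A tag is a read end extended to 200 bp, and its count at the summit was worked back from the fold and the p-value of each peak. The lists held 60363 to 65009 peaks in KO and 61240 to 72484 in WT. The background, a measure of depth, was 1.12 to 1.86 tags per 200 bp in KO and 1.42 to 2.26 in WT (exact permutation test, two-sided, p = 0.514, smallest possible 0.0286). An intronic region of the targeted gene Rxra (chr2:27744546-27744950) had a peak of 38 to 46 tags in every WT library and none in KO. Near 8 RXR and coregulator genes, 1 of 119 consensus regions had this pattern, against 0.82% genome-wide. Its place relative to the floxed segment was not tested, so it does not verify the deletion. Promoters of 8 of 10 AM marker genes, Siglecf, Marco and Pparg among them, had a peak in all 8 libraries, and those of Chil3 and Krt79 had none. Of 13 markers of other cells, 7 had no promoter peak (Sftpc, Sftpb, Cd3e, Cd79a, Ly6g, Cdh5 and Ncr1) and 4 had one in all 8 libraries (Epcam, S100a8, Pecam1 and Ly6c2). Summed over the 13, promoter tags were 276 to 390 in KO and 305 to 448 in WT, and their part in the results was not tested. All 4 KO libraries but no WT library had peaks at 2 regions of Xist, and the sex of the animals, which the labels do not give, cannot be told apart from the genotype; all 6 genes are autosomal. In bulk chromatin, a change in the share of a cell type and a change in accessibility per cell also cannot be told apart.

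Within KO, replicates 1_2 and 1_3 differed by no more than counting noise (mean chi-square per region 0.980, where 1 is expected of counting alone), and so did replicates 2 and 3 (1.01). The other KO pairs gave 1.10 to 1.28 and the WT pairs 1.12 to 1.99. Calls are therefore given for all 8 libraries and, where they change, also with each of those KO pairs counted as 1 sample.

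The sequences below carry the main results, in the sense of the gene, with DR4 matches in capitals. The Abca1 promoter, from RefSeq (GRCm38.p6, chr4:53159846-53160145, minus strand), runs from 250 bases before to 50 after the start. It holds a DR4 whose first hexamer, read on the plus strand of the genome, is closer to AGGTTA than to AGGTCA. The windows of 201 bases at the summits of Abca1-r3 (chr4:53155606-53155806) and Abca1-r4 (chr4:53150615-53150815, both GRCm38, minus strand) belong to the 2 regions of the 55 that differed most between genotypes, and hold no match to any motif searched.
Abca1 promoter: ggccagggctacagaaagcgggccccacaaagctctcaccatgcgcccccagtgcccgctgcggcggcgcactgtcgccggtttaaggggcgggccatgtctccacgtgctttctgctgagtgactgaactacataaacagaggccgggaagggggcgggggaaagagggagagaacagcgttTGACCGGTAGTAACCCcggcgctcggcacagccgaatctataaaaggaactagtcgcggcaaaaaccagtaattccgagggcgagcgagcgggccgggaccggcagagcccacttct
Abca1-r3: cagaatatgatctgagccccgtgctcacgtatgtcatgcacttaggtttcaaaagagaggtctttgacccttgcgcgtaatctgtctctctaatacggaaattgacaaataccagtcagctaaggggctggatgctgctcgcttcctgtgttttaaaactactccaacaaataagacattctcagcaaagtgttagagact
Abca1-r4: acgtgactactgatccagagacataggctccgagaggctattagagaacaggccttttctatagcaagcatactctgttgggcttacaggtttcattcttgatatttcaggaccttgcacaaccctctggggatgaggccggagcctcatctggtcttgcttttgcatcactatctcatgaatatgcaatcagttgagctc

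Accessibility rose in KO at the 5′ end of Abca1, and few regions of the other genes passed the test. Of the 55 regions listed in all 8 libraries, 6 were higher in KO and 1 was lower (limma, adjusted p under 0.05 over all regions tested). Genome-wide, 5.81% of regions were higher in KO and 7.03% lower. Of the 6, 5 lay between 0.128 kb upstream and 10.8 kb downstream of the Abca1 start, and the sixth was the Mylip promoter. The region that was lower lay in an intron of Abcg1. No region passed the limma test at Nr1h2, Nr1h3 or Apoe, where 2 of 4, 1 of 7 and 1 of 6 regions had an unadjusted p under 0.05, as did 8 of 15 at Abca1, 5 of 21 at Abcg1, 2 of 2 at Mylip and 26.2% of all regions tested. By quantile normalisation the counts were 6 higher and 3 lower, and by strength percentile 4 higher and 2 lower. Other alternatives left no lower call: 4 higher and 0 lower under background scaling, and 8 and 0 with replicate number as a block. With the KO pairs counted as 1 sample they were 5 and 0. The median log2 difference over the 55 regions was 0.05, beside 0.04 over all regions tested, and 33 of the 55 were above 0. The groups did not overlap at 8 regions higher in KO and 5 lower in KO, against 8.25% and 7.91% of all regions.

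**Figure D1:**
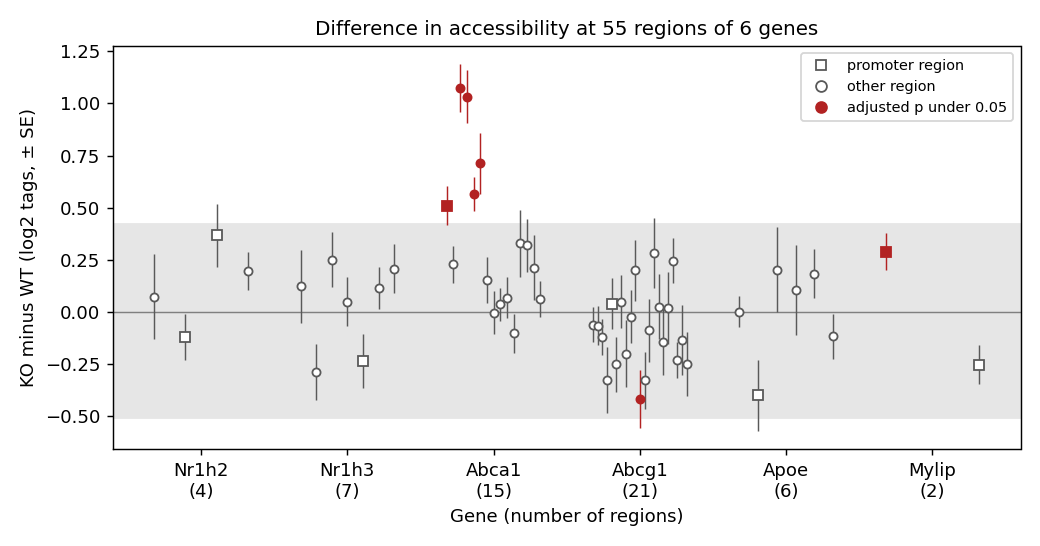
Log2 difference in centred summit tags, KO minus WT, with its SE (4 libraries each), at the 55 regions of the 6 genes, ordered within a gene from 5′ to 3′. Squares are promoter regions and filled red symbols passed the test; the grey band holds the 5th to 95th percentile of all 47499 regions tested, from -0.51 to 0.42, and the 5 red Abca1 points lie above it.

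By presence or absence of a peak, no region at the genes was specific to a genotype, and few were genome-wide. Among the 66 consensus regions, 0 were listed by every library of one genotype and by none of the other, against 0.82% of consensus regions genome-wide seen only in WT and 0.285% only in KO. Each library had a peak at 61 to 65 of the 68 regions. Of the 13 regions without a peak in all 8 libraries, 7 were listed in more KO than WT libraries, 5 in more WT libraries and 1 in equal numbers. The most uneven of these were Abca1-r9, Abca1-r18 and Apoe-r6, each in 4 KO and 2 WT libraries, and Abcg1-r27 (1 KO, 3 WT) and Abcg1-r19 (2 KO, 4 WT). A missing peak means only that the caller's threshold was not reached or that neighbouring summits were not split: in the libraries that listed it, Abca1-r9 had 63 to 93 tags in KO and 59 to 96 in WT.

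The receptor genes were open in both genotypes, and no difference at them passed the test. The promoter region of Nr1h2, the broadly expressed LXRβ gene (Nr1h2-r2, chr7:44553787-44554179), had 105, 109, 82 and 107 tags in KO and 111, 157, 139 and 105 in WT. The ranges overlapped, and the log2 difference was -0.12 (95% interval -0.34 to 0.10, adjusted p = 0.513). A weaker peak in an intron (Nr1h2-r3, 0.475 kb from the start) had 63, 50, 45 and 53 tags in KO against 43, 54, 50 and 42 in WT. Once each library was centred on its median the KO libraries were all above the WT libraries, by 0.37 on the log2 scale (SE 0.151), but the adjusted p was 0.103. The strongest region near Nr1h2 (Nr1h2-r4, 193 to 267 tags over the 8 libraries) is the promoter of the neighbouring polymerase gene Pold1, and its difference was 0.20 (adjusted p = 0.155), called in 2 of 17 alternatives, without WT replicate 4 (0.27) and in a fit with replicate number as a block (0.28).

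At Nr1h3, which encodes LXRα, the macrophage-enriched receptor and itself an LXR target in many cells, 7 regions were tested. The promoter region (Nr1h3-r5, chr2:91194574-91195360) had 60, 64, 66 and 49 tags in KO and 85, 100, 73 and 70 in WT. Every raw KO count was below every WT count, but after centring the groups overlapped, and the difference was -0.23 (95% interval -0.50 to 0.03, adjusted p = 0.253). Nr1h3-r4, 1.93 kb upstream in an intron of a longer Nr1h3 transcript, had 75 to 123 tags in KO and 85 to 136 in WT, a log2 difference of 0.05 (adjusted p = 0.835). Nr1h3-r3, over the 5′ end of the annotated gene and at the Acp2 promoter, had 66 to 105 tags in KO and 64 to 105 in WT (0.25, adjusted p = 0.216). Nr1h3-r6 and Nr1h3-r7, at the promoter of the neighbouring gene Madd, differed by 0.12 and 0.21 (adjusted p = 0.497 and 0.267). The lowest value was that of Nr1h3-r2 in an intron of the neighbouring gene Acp2, where KO had 63, 61, 56 and 42 tags and WT 67, 99, 77 and 72 (-0.29, adjusted p = 0.159).

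Abca1 exports cholesterol and phospholipid to lipid-poor apolipoproteins. Its promoter region (Abca1-r1, chr4:53159691-53160316) had 192, 176, 152 and 164 tags in KO and 135, 182, 143 and 105 in WT. WT replicate 1_3, the deepest library, overlapped KO in raw tags, but after centring all KO libraries were higher. The log2 difference was 0.51 (SE 0.093, adjusted p = 9.2e-05, a fold of 1.42), and the call was lost under scaling by background tags (0.45) and when peaks were compared by strength percentile. Within each library's own list, the promoter peak stood at percentile 78.8 to 84.0 of peak strength in KO and 71.4 to 80.2 in WT.

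The largest differences were in introns near the start. Abca1-r3, 4.19 kb into Abca1 (chr4:53155425-53155904), had 154, 145, 122 and 116 tags in KO and 85, 93, 70 and 52 in WT. The lowest KO library was above the highest WT library without any scaling, and the fold was 2.10 (log2 1.07, 95% interval 0.84 to 1.30, adjusted p = 1.3e-09). It rose from percentile 36.3 to 54.4 in WT to 68.8 to 73.6 in KO. Abca1-r4, at 9.18 kb (chr4:53150509-53150848), had 114, 99, 93 and 102 tags in KO and 63, 78, 54 and 41 in WT. These groups did not overlap either, and the fold was 2.05 (log2 1.03, SE 0.127, adjusted p = 4.6e-08). Among all regions tested, Abca1-r3 and Abca1-r4 ranked 107 and 120 from the top by log2 difference.

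A strong peak followed at 10.01 kb (Abca1-r5, chr4:53149609-53150077), with 317, 304, 268 and 266 tags in KO and 203, 305, 231 and 180 in WT. It was among the most accessible regions of the gene in both genotypes, and the log2 difference was 0.57 (SE 0.080, adjusted p = 1.0e-06). Abca1-r6, at 10.8 kb, was weaker, with 79, 64, 91 and 59 tags in KO and 47, 69, 46 and 45 in WT (log2 0.71, SE 0.146, adjusted p = 4.6e-04), and its call was lost by strength percentile (adjusted p = 0.273). Between promoter and intronic peaks, Abca1-r2 at 1.09 kb was the only region of this stretch that missed the threshold, with 202, 199, 215 and 168 tags in KO and 188, 239, 204 and 152 in WT. Its KO libraries were all higher after centring, by 0.23 (adjusted p = 0.0799).

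The rest of the Abca1 window showed no such difference. The 9 tested regions beyond 20 kb from the start, at 33.0 to 148 kb, had log2 differences of -0.10 to 0.33 with a median of 0.07. None passed the test (smallest adjusted p = 0.0859), and at all 9 the groups overlapped, whereas the 6 regions within 20 kb had a median of 0.64 and no overlap. The strongest distal region, Abca1-r11 at 39.3 kb, had 308, 299, 263 and 272 tags in KO and 322, 421, 326 and 244 in WT (0.04, adjusted p = 0.814). Abca1-r19, at the promoter of the downstream gene Nipsnap3b, had 208 to 254 tags in KO and 199 to 328 in WT (0.06, adjusted p = 0.700). Because this contrast is taken within each library, it can be read without scaling, although Abca1-r19 lies outside Abca1 itself. Tags at the 6 near regions divided by tags at the 9 distal ones gave 0.700, 0.684, 0.782 and 0.791 in KO and 0.510, 0.536, 0.514 and 0.506 in WT. The split at 20 kb was chosen after the values were seen, so this ratio is a description, with no test.

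**Figure D2:**
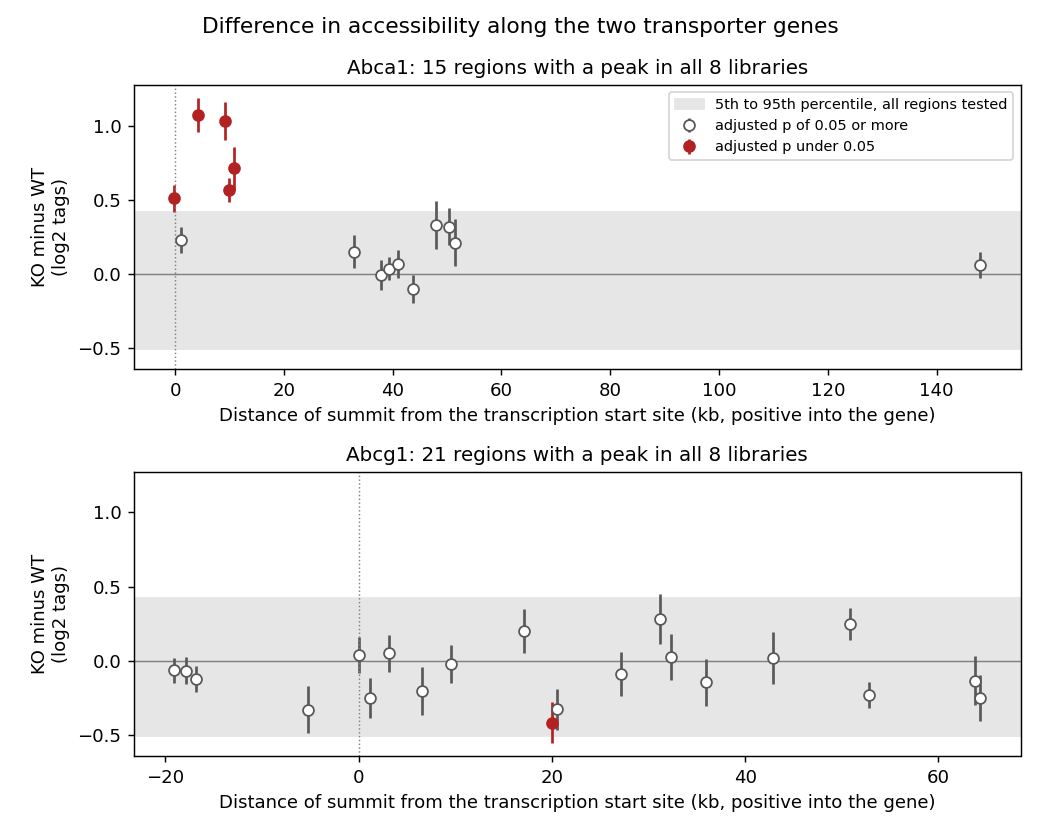
Log2 difference in centred summit tags, KO minus WT, with its SE (4 libraries each), against the distance of the summit from the start site in kb, for Abca1 (15 regions, above) and Abcg1 (21 regions, below). Filled red points passed the test and the grey band holds the 5th to 95th percentile of all regions tested; the raised points of Abca1 lie between -0.128 and 10.8 kb, and the 9 regions from 33.0 kb on lie within the band.

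Abcg1, which passes cholesterol to mature lipoprotein particles, had more regions than any other of the 6 genes, 27 in all and 21 in all 8 libraries. Its promoter region (Abcg1-r5, chr17:31057478-31058387, over an exon) had 96, 86, 90 and 68 tags in KO and 83, 103, 117 and 82 in WT. The ranges overlapped, and the log2 difference was 0.04 (95% interval -0.20 to 0.28, adjusted p = 0.873). A cluster of strong peaks lay upstream. Abcg1-r1, at 19.1 kb upstream, had 356, 358, 281 and 286 tags in KO and 334, 438, 383 and 392 in WT (-0.06, adjusted p = 0.692), and Abcg1-r3, at 16.8 kb upstream, had 240, 206, 191 and 161 against 234, 292, 283 and 198 (-0.12, adjusted p = 0.404).

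The region that passed the test was Abcg1-r11, at 20.02 kb in an intron (chr17:31077472-31077924). It had 59, 53, 43 and 39 tags in KO and 69, 99, 72 and 62 in WT, with every KO count below every WT count. The log2 difference was -0.42 (SE 0.138, adjusted p = 0.0376). The call was lost when any single library other than KO replicate 1_2 was left out (adjusted p up to 0.158 over the alternatives). It was also lost under background scaling, by strength percentile and with replicate number as a block. Averaging replicates 1_2 and 1_3, or counting the KO pairs as 1 sample, lost it too. The adjacent Abcg1-r12, 0.6 kb further on, had 59 to 73 tags in KO and 72 to 111 in WT (-0.33, adjusted p = 0.110). At 52.8 kb, Abcg1-r23 had 218, 214, 187 and 158 tags in KO and 237, 306, 258 and 252 in WT. Its KO libraries were all lower, by 0.23 on the log2 scale (adjusted p = 0.0748), and it passed the test under quantile normalisation (-0.28) and by strength percentile. Without WT replicate 4, whose value stood apart here, the difference was -0.15 (adjusted p = 0.237). Over the 21 regions, 14 were below 0, the median was -0.09 and the range -0.42 to 0.28.

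Apoe encodes the lipoprotein component that accepts exported cholesterol. Its nearest peak (Apoe-r2, chr7:19699577-19699988, summit 0.580 kb upstream) was weak, with 37, 38, 29 and 24 tags in KO and 40, 75, 52 and 35 in WT. The raw ranges overlapped and the centred values did not, with KO lower by 0.40 (95% interval -0.74 to -0.06), yet the adjusted p was 0.119. The strong region of this locus was Apoe-r1, the promoter of the neighbouring mitochondrial import gene Tomm40, with 494 to 556 tags in KO and 563 to 724 in WT and a log2 difference of 0.00 (adjusted p = 0.996). Downstream, Apoe-r5 between the apolipoprotein genes had 92, 81, 78 and 76 tags in KO against 76, 99, 91 and 70 in WT (0.18, adjusted p = 0.330), and Apoe-r7 at Apoc2 had 97 to 111 against 116 to 154 (-0.12, adjusted p = 0.528).

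Mylip had only 2 regions in the window, both with a summit within 1 kb of an annotated start, and the difference was above 0 at one and below 0 at the other. The main promoter (Mylip-r1, chr13:45389391-45390044) had 268, 249, 221 and 187 tags in KO and 200, 238, 241 and 195 in WT. After centring, the lowest KO library lay just above the highest WT library, and the difference was 0.29 (SE 0.088, adjusted p = 0.0218). That call was lost under background scaling, with replicates 1_2 and 1_3 averaged and with the KO pairs counted as 1 sample. It was also lost without KO replicate 1_2, 1_3 or 2 and without WT replicate 1_2 or 1_3 (adjusted p up to 0.574 over the alternatives). The downstream region (Mylip-r2, chr13:45391525-45391916, in an intron with its summit 0.815 kb from the nearest Mylip start) had 134, 131, 115 and 118 tags in KO and 162, 209, 176 and 146 in WT. Every KO count was below every WT count, and the difference was -0.25 (95% interval -0.44 to -0.07, adjusted p = 0.0636), past the threshold under quantile normalisation (-0.29) and by strength percentile. By rank within the list, Mylip-r2 was at percentile 71.6 to 76.2 in KO and 81.1 to 84.3 in WT. The difference between these regions was not tested.

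**Figure D3:**
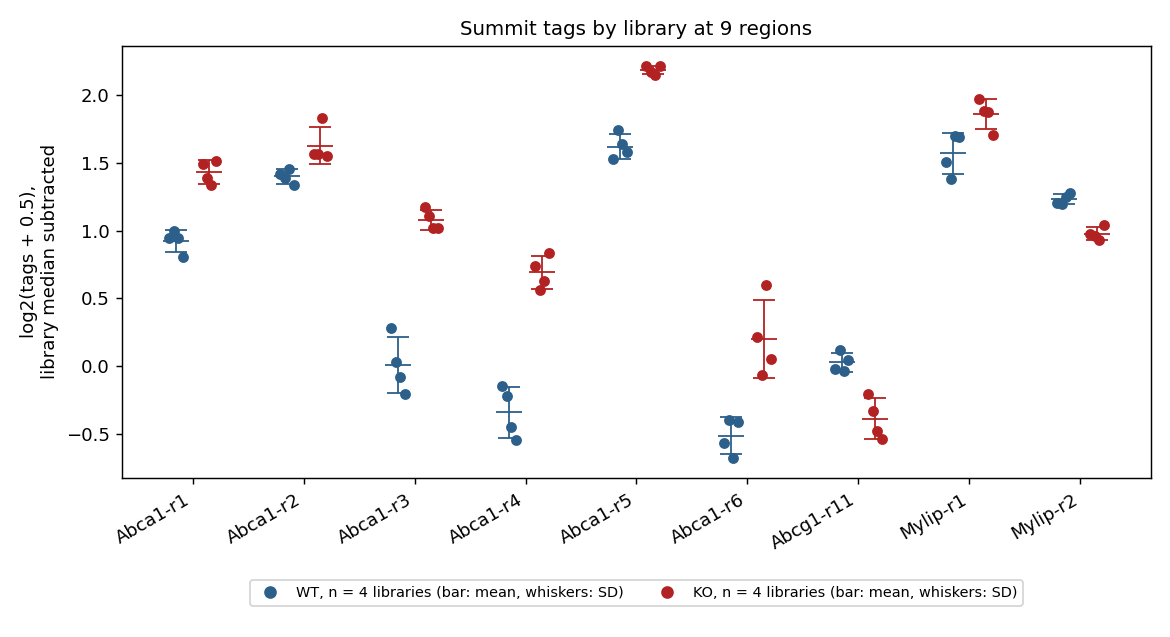
Log2 of summit tags plus 0.5, with each library's median subtracted, at 9 regions; points are libraries (4 WT in blue, 4 KO in red), bars the group mean and whiskers the SD. KO lies above WT at the 6 Abca1 regions and Mylip-r1, with a gap that is widest at Abca1-r3 and Abca1-r4, and below WT at Abcg1-r11 and Mylip-r2.

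In order of mean strength percentile, the promoter peaks ran from Mylip-r1, with 88.2 to 94.1 over the 8 libraries, through Abca1-r1, Nr1h2-r2 and Mylip-r2, which overlapped one another, to Abcg1-r5 (55.8 to 67.1), Nr1h3-r5 (47.3 to 63.5) and Apoe-r2 (44.2 to 68.5), which also overlapped, and Nr1h2-r3 (20.1 to 38.9). Mylip-r2 stood above Abca1-r1 in every WT library and below it in every KO library.

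**Figure D4:**
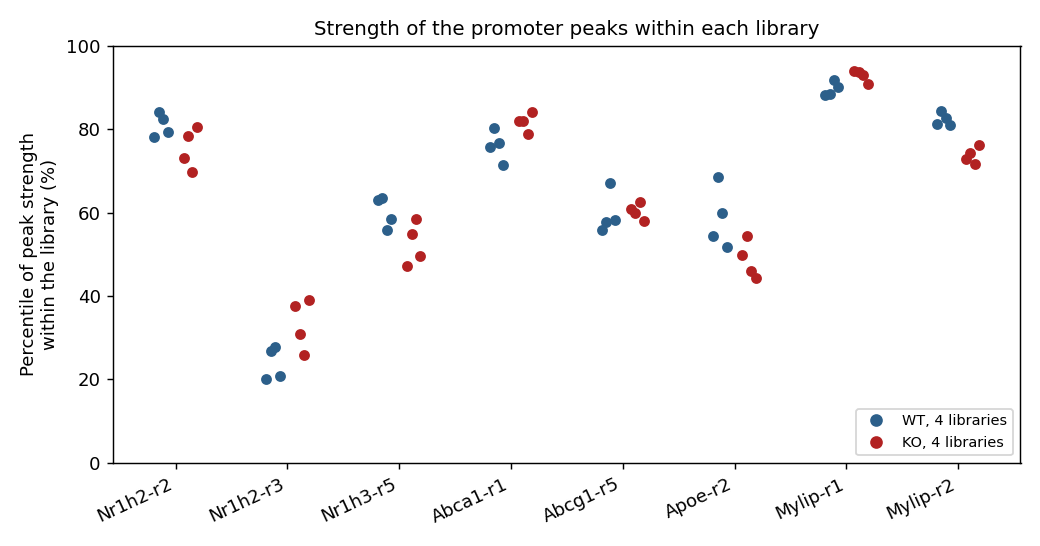
Percentile of peak strength within each library's own list (0 to 100%) at the 8 promoter regions of the 6 genes; points are libraries, 4 WT in blue and 4 KO in red. Mylip-r1 is highest and Nr1h2-r3 lowest, and KO and WT are separate at Mylip-r2, where KO lies at 71.6 to 76.2 and WT at 81.1 to 84.3.

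Matches to the DR4 were sought because LXR-RXR heterodimers bind it. The pattern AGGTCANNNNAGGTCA, sought up to 100 bp from the summit on either strand and with at most 2 mismatches, was found in 5 of the 66 consensus regions, 4 at Abcg1 and 1 at Abca1, and in 2.62% of all consensus regions. Of the 5, Abca1-r18 was not tested, with a peak in 4 KO and 2 WT libraries, and none of the others passed. Of all regions tested, 5.81% were higher in KO and 7.03% lower. A form with the first hexamer AGGTTA (AGGTTANNNNAGGTCA, at most 2 mismatches) was added after the first search found nothing in the Abca1 promoter. It was found in 8 of the 66 regions and in 1.70% of all consensus regions, and 461 of its 1237 regions also matched the first form. Abcg1-r2, Abcg1-r6 and Abcg1-r9 held the same site under both forms. The form was chosen with the Abca1 sequence in view, so its share is a description.

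The sites are shown with 7 flanking bases on each side, in the orientation of the motif and with the site in capitals, to allow comparison of the hexamers of Abca1, Abcg1 and Mylip. They lie on mm10 at chr4:53159947-53159962 (plus), chr4:53158872-53158887 (plus), chr4:53115990-53116005 (plus), chr17:31039744-31039759 (minus), chr17:31058881-31058896 (minus), chr17:31067183-31067198 (minus), chr17:31122073-31122088 (plus) and chr13:45391694-45391709 (plus).
Abca1-r1: agcgccgGGGTTACTACCGGTCAaacgctg
Abca1-r2: cccgatgGGGTTACTTGCGGTCAttcggct
Abca1-r13: gccactgGGGTTACTCTCGGTCAgtgccct
Abcg1-r2: agggctgAGGTTACTTCAGGGCAgttctga
Abcg1-r6: aggcaagAGGTAACTGTCGGTCAaatcctg
Abcg1-r9: cctacagAGGTTACTACAGGGCAaacagcc
Abcg1-r26: gctagagAGAGTAGACAAGGTCAgaggatg
Mylip-r2: ctcagcaGTGTTACTACAGGTCActgtaga

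Of these 8 regions, Abca1-r1 was higher in KO and the other 7 did not pass the test. With 5.81% of all regions tested higher in KO and 7.03% lower, so small a count is a description. The log2 differences were 0.51 at Abca1-r1, 0.23 at Abca1-r2 and -0.10 at Abca1-r13, and ran from -0.25 to -0.02 at the 4 Abcg1 regions, with -0.25 at Mylip-r2. The regions of largest difference, Abca1-r3 and Abca1-r4, held neither form. In the 300 bases of the RefSeq promoters, matched for Nr1h2, Nr1h3, Abca1, Apoe and Mylip, the single match to any motif was the AGGTTA form in Abca1, which starts 67 bases before the transcription start and is present in 2.03% of 32851 promoters. The RXR homodimer and PPAR-RXR element DR1 (AGGTCANAGGTCA, at most 2 mismatches) was found in 5 of the 66 regions, against 4.13% of all, and the motif of the macrophage factor PU.1 (GAGGAAGT, exact) in 4, against 10.7%.

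Other genes of the pathway showed called regions in both directions. Of 67 tested regions at 15 further LXR-linked lipid genes, 8 were higher in KO and 10 lower. Of all regions tested, 5.81% were higher and 7.03% lower. The largest rise by fold was at Scd1, a fatty acid desaturase, whose promoter had 31, 28, 28 and 25 tags in KO and 15, 21, 17 and 12 in WT (log2 1.004, adjusted p = 2.1e-04). A further region near Scd1 (chr19:44416171-44416588) had 29 to 35 tags in every KO library and no WT peak. Arl4c, which encodes a small GTPase induced by LXR, was higher at its promoter, with 73, 76, 64 and 65 tags in KO and 37, 81, 44 and 35 in WT (0.79, adjusted p = 1.8e-04); WT replicate 1_3 lay above KO in raw tags.

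Other regions were lower in KO. Within 20 kb of Srebf1, the gene of the lipogenic factor SREBP-1c, a region in an exon of the neighbouring gene Rai1 had 24, 37, 28 and 29 tags in KO and 102, 98, 105 and 97 in WT (log2 -1.55, adjusted p = 2.9e-10). At Lpl, which encodes lipoprotein lipase, a flanking region had 17 to 24 tags in KO and 32 to 51 in WT (-0.82, adjusted p = 0.00147). Near Cd5l, a macrophage survival gene, the promoter region of the neighbour Fcrl1 had 12 to 26 tags in KO and 24 to 61 in WT (-0.88, adjusted p = 0.00216).

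Of 115 tested regions at 14 genes of cholesterol uptake, storage and trafficking, 2 were higher in KO and 11 lower. Of 77 at 8 RXR and coregulator genes, 3 were higher and 7 lower, beside 5.81% and 7.03% of all regions tested. Of 66 at the AM marker genes, 11 were higher and 10 lower, with the extremes at Itgax (log2 2.21), Krt79 (-1.35) and Marco (-1.04). Among the called marker regions with a log2 difference of 0.5 or more in size, every one higher in KO was at Itgax (0.55 to 2.21). Those at Marco, Mrc1, Fabp4 and Krt79 were all lower (-1.35 to -0.55). Itgax encodes CD11c, whose promoter drives the Cre transgene of the KO animals only, and the part of transgene copies in the tags at Itgax was not tested. None of 35 regions at the markers of other cells passed the limma test in either direction, and 4 had an unadjusted p under 0.05, against 26.2% of all regions tested. With the KO pairs counted as 1 sample, the calls fell to 5 higher and 7 lower at the LXR-linked lipid genes. They fell to 0 and 4 at the cholesterol genes and to 1 and 3 at the RXR and coregulator genes. At the AM markers they were 8 and 7, and genome-wide 1006 and 2006 of 47499. The tested regions of Scd1, Arl4c, Srebf1, Lpl, Cd5l, Itgax, Krt79 and Marco given above by value still passed.

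Among 12253 promoter regions of protein-coding genes, those whose centred tags followed a promoter most closely over the 8 libraries were named by Pearson's r, as a description. For Abca1-r1 they were Tlr7 (r = 0.983) and Irf2 (0.972), with log2 differences of 0.48 and 0.21. Tlr7 lies on the X chromosome, and the sex of the animals cannot be told apart from the genotype. Those for Mylip-r1 were Hnrnpm (0.979) and Sema4d (0.973). For Mylip-r2 they were Cluh (0.985) and Fabp4 (0.979), both lower in KO, by 0.63 and 0.70 on the log2 scale. For Apoe-r2 they were 1110032F04Rik (0.948) and Ak4 (0.938), for Abcg1-r5 Ssh3 (0.957) and Rbbp9 (0.948), and for Nr1h3-r5 Prss12 (0.953) and Zrsr1 (0.933). For Nr1h2-r2 they were Arsi (0.906) and Lrif1 (0.905), and for Nr1h2-r3 Cdc23 (0.980) and Slc2a6 (0.975). The libraries share the genotype split and differ in depth, and with 8 points and so many promoters high values are common.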

How the data were processed

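AMs of adult mice were profiled by ATAC-seq in 4 KO and 4 WT libraries, grouped by the genotype and title in the labels. According to the study's methods and the submitters' processing notes, the authors used cutadapt for trimming, Bowtie2 for alignment to mm10 and SAMtools for filtering, dropped duplicates, and called peaks per library with MACS3 at a q-value of 0.05, shifting read ends and extending them to 200 bp around the Tn5 cut. Each deposited list gives a fold (the ratio of summit tags to local background, each with 1 added), a −log10 p-value and a −log10 q-value. The authors' score column was not used, and the deposited lists hold no read totals.

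From the deposited fold and −log10 p-value, the whole number of tags at each summit was worked back with the caller's Poisson model, and it gave back the p-value of 100% of peaks within a relative error of 1e-05. Values of different lists were not normalised together by the authors, so log2(tags + 0.5) was centred on each library's median over the 47499 regions that every library listed. KO and WT were compared with limma 3.58.1 in R 4.3.3 (trended variance, two-sided, Benjamini-Hochberg over all 47499 regions, threshold 0.05). The authors' edgeR test on read counts was not run, since the lists hold none. A promoter region has its summit within 1 kb of a start of the gene. The same fit was also run on tags simulated for these 47499 regions, without the close KO pairs seen in the data. Strength percentiles rank peaks by −log10 p-value within a list. Regions without a peak in all 8 libraries were not tested.

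The 6 genes, the other gene lists and the motifs were chosen with earlier results of these data known. A marker of other cells in the list first drawn up, and a region near another marker, are not reported here. The rule for naming took the promoters, every region that passed the test or was specific to a genotype, the 3 strongest regions of each gene, and, from other lists, the 8 genes with the largest difference of 0.5 or more. Some regions described above, such as Abca1-r2, Nr1h3-r2, Nr1h3-r3 and Abcg1-r12, fall outside this rule. They are not among the 25 named regions, and their values under the alternatives are not given. The alternatives are other scalings, pseudocounts, filters and peak widths, a replicate block, averaged replicates, and leaving out each library. Gene models were GENCODE M21, and sequence was GRCm38, matching mm10 in chromosome lengths. Python 3.11.15 with scipy 1.17.1 and pysam 0.24.0 was used.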

Additional observations from a re-analysis of the deposited data

Results flagged for a closer look

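Among 58 sets of 4 libraries compared, 2 held a value that stood apart from the other 3 libraries of their group (Dixon's criterion), both times in WT replicate 4; chance alone gives about 1 in 20 such sets. At Apoe-r1, the Tomm40 promoter, its centred log2 tags were 3.25 against 2.99 to 3.01 in the other WT libraries. At Abcg1-r23 they were 2.06 against 1.74 to 1.79.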

How the results depend on the processing

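Presence or absence of a peak specific to a genotype stayed at 0 regions under every alternative run, leaving out each library included. The count of regions that passed the test, 7, was 4 under background scaling, all higher in KO, 9 under quantile normalisation, 6 by strength percentile, and 5 to 8 when 1 library was left out. Genome-wide, background scaling changed the split of 2760 higher and 3337 lower to 575 and 1988, and comparing strength percentiles to 537 and 2745. With each close KO pair counted as 1 sample, an alternative added after seeing the data, 3012 regions passed (1006 higher in KO, 2006 lower) in place of 6097. Abca1-r3, Abca1-r4 and Abca1-r5 passed under all 17 alternatives, Abca1-r6 under 16, Abca1-r1 under 15, Mylip-r1 under 9 and Abcg1-r11 under 5. Over the 25 named regions, 368 comparisons with an alternative kept direction and call, 23 lost the call and 6 gained it. Nr1h3-r5 had no value with peaks cut to 100 bp.

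The sign changed in 27, all of regions that did not pass: under background scaling at Nr1h3-r4 (-0.0067), Abca1-r11 (-0.020), Abcg1-r5 (-0.016) and Apoe-r1 (-0.055), and under quantile normalisation at Abca1-r11 (-0.036), Abca1-r19 (-6.2e-04) and Apoe-r1 (-0.083). By strength percentile, in percentage points, it changed at Abca1-r11 (-0.385), Abca1-r19 (-0.545) and Apoe-r1 (-0.159), with a pseudocount of 2 at Apoe-r1 (-0.0030), and with replicates 1_2 and 1_3 averaged at Abcg1-r5 (-0.019). With 1 library left out, values ran from -0.064 to 0.11 at Nr1h3-r4, from -0.0043 to 0.059 at Abca1-r11, from -0.016 to 0.13 at Abca1-r19, from -0.11 to 0.041 at Abcg1-r1, from -0.028 to 0.13 at Abcg1-r5 and from -0.040 to 0.064 at Apoe-r1. The KO minus WT difference in background tags, -0.175, turned to 0.0173 without WT replicate 1_3 (range -0.294 to 0.0173). The cause of these changes was not tested.

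Libraries of the 2 genotypes share the replicate numbers 1_2, 1_3 and 3. Deviations of libraries with the same number correlated by 0.0555, 0.116 and 0.0368. Those of the other KO and WT libraries correlated by -0.0673 to 0.0322, so the same-number values were the highest. Whether the numbers pair the samples was not tested, and the main fit did not use them. With a replicate block, 8 regions passed, all higher in KO, the sign changed at Abca1-r19 (-0.035) and Abcg1-r1 (0.078), and 6875 passed genome-wide. Depth limits the weak regions: Apoe-r2, with 24 to 75 tags, had the widest 95% interval of the promoter regions.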
